A study of Mus musculus with 12 samples.

Results

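Gdf15 and 6 genes of the integrated stress response, Atf4, Ddit3, Trib3, Asns, Sesn2 and Ddit4, were followed in the ribosome-bound RNA of the small intestinal muscularis. The 7 genes were taken by name from the table of the series, which holds 12975 genes, and all 7 were present. Libraries came from Rpl22HA mice (strain label B6J.129(Cg)-Rpl22tm1.1Psam/SjJ) with a CreERT2 driver for enteric glia, in which Cre activated by tamoxifen adds an HA tag to the ribosomal protein Rpl22 (RiboTag). All mice, controls included, received tamoxifen at 10 to 12 weeks of age and were sacrificed 3 to 4 weeks after the first injection. They were either naïve (T0, 3 mice) or taken 3 h after intestinal manipulation (T3, 3 mice), in which the bowel is externalised under anaesthesia and passed under a swab. The 12 libraries hold no group with anaesthesia and surgery alone. Each homogenate of muscle layers and myenteric plexus was split between an anti-HA antibody, which captures tagged ribosomes, and an isotype IgG1, which measures background, giving 4 groups of 3 libraries: HA T0, HA T3, IgG T0 and IgG T3. Mice are numbered 1, 2 and 4 at T0 and 1, 3 and 4 at T3.

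The integrated stress response starts when kinases that sense amino acid shortage, endoplasmic reticulum stress, double-stranded RNA or haem shortage phosphorylate the translation factor eIF2. General translation then slows, while the mRNA of the transcription factor ATF4 is translated better. ATF4 induces genes for amino acid supply, such as Asns (asparagine synthetase), the transcription factor CHOP (gene Ddit3), the pseudokinase Trib3, which restrains ATF4 and CHOP, and the mTORC1 inhibitors Sesn2 and Ddit4 (REDD1). GDF15, a secreted cytokine of the TGF-β family that acts on brainstem neurons through GFRAL and RET, is a known target of ATF4 and CHOP and also of p53. Ddit4 is also induced by glucocorticoids and hypoxia.

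The regions before the transcription starts are shown for Gdf15, the gene with the largest change, and for Asns and Trib3, the genes that hold a C/EBP-ATF response element (CARE). They are RefSeq sequences of GRCm38.p6 and run 5′ to 3′ on the strand of the gene, from 250 bases before to 30 bases after the start. Capitals mark a match to 1 of 5 searched motifs. RefSeq lists 2 starts for Gdf15, the upstream one with the window chr8:70632427-70632706 and the downstream one with chr8:70632066-70632345, both on the minus strand. The Asns window is chr6:7693180-7693459 and the Trib3 window chr2:152344031-152344310, both on the minus strand.
Gdf15 upstream start: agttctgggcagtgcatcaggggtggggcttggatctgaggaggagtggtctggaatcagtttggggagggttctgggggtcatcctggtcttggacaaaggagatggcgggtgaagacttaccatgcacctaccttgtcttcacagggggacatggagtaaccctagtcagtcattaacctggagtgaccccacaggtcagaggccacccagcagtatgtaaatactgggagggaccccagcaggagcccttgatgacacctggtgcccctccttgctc
Gdf15 downstream start: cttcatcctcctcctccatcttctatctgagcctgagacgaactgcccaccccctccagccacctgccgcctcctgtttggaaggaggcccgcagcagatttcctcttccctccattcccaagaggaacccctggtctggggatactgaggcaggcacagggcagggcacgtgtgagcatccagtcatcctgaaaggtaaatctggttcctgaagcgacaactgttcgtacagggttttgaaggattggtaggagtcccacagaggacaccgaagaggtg
Asns: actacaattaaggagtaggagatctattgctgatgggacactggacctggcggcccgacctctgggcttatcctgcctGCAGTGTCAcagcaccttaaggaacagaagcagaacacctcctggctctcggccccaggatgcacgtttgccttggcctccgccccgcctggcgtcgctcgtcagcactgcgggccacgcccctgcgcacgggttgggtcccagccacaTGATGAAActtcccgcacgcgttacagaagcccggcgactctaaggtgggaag
Trib3: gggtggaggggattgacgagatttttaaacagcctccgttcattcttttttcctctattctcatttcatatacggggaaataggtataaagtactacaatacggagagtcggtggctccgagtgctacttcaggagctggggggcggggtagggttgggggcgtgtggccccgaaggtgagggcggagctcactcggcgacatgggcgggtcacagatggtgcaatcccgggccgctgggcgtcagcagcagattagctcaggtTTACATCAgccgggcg

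The CARE letters TGATGNAA, searched on both strands, were found in Asns from -23 to -16 relative to the start and in Trib3 from +15 to +22, there on the reverse strand. The share of all 32851 windows of 300 bases in the RefSeq table that held them was 3.97%. The antioxidant response element letters TGACNNNGC, present in 12.4% of all windows, were found in Asns on the reverse strand (the first capitals in its sequence) and in Sesn2. The AP-1 letters TGANTCA, present in 7.81%, were found in Ddit3. No member held the CRE letters TGACGTCA (1.79% of all windows) or the EGR letters GCGNGGGCG (5.55%). The windows of Gdf15, Atf4 and Ddit4 held none of the 5 motifs, which says only that these letters are not in the windows searched.

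HA libraries held 1789710 to 2870591 UMI counts at T0 and 1221788 to 1495439 at T3, and IgG libraries held 388214 to 1289833 at T0 and 88136 to 248522 at T3. Levels are given as counts scaled to the library total (CPM). A gene without a count could still have had up to 3, which corresponds to 1.05 to 1.68 CPM in HA T0, 2.01 to 2.46 in HA T3, 2.33 to 7.73 in IgG T0 and 12.1 to 34.0 in IgG T3, so low genes were hardly measurable in IgG T3. Such limits, and the 95% intervals of count ratios, cover counting error only. The glial markers Sox10, S100b and Gfap were on average at 460.7, 586.8 and 118.3 CPM in HA T0 and at 22.7, 32.4 and 5.47 in IgG T0. The 4 markers of interstitial cells of Cajal were also enriched in HA at T0, with 3 of 4 past the test.

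Gdf15 (ENSMUSG00000038508, GRCm38, chr8:70629393-70632456, minus strand) was low in naïve HA libraries and much higher 3 h post-injury. It was at 4.99, 3.91 and 4.18 CPM in HA T0 mice 1, 2 and 4, from 7 to 13 counts each. It was at 319.2, 243.4 and 217.2 CPM in HA T3 mice 1, 3 and 4, from 279 to 390 counts each. The lowest T3 library was far above the highest T0 library. The pooled counts rose 58.6-fold (95% interval 41.3 to 86.1), and the fitted log2 fold change was 6.13 (SE 0.26, adjusted p 4.94e-13, edgeR quasi-likelihood test). Gdf15 passed the filter on low counts in this comparison through its HA T3 libraries. Without that filter the fitted change was 6.14 (adjusted p 5.45e-16, same test). Of 9441 genes tested, 18.7% were called higher and 15.1% lower in HA T3, and 50.8% of them had HA groups without overlap.

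In the IgG pull-down, Gdf15 had 1, 0 and 2 counts at T0 (2.58, 0 and 1.55 CPM) and 2 counts in each T3 library (22.7, 21.7 and 8.05 CPM). With so few counts it was not tested. The pooled ratio of IgG T3 to IgG T0 was 10.6, with a wide interval of 2.25 to 65.2. With no filter the IgG change was not called (log2 fold change 3.14, adjusted p 0.129). The IgG comparison rested on 9 counts in all and does not settle whether Gdf15 changed there.

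**Figure D1:**
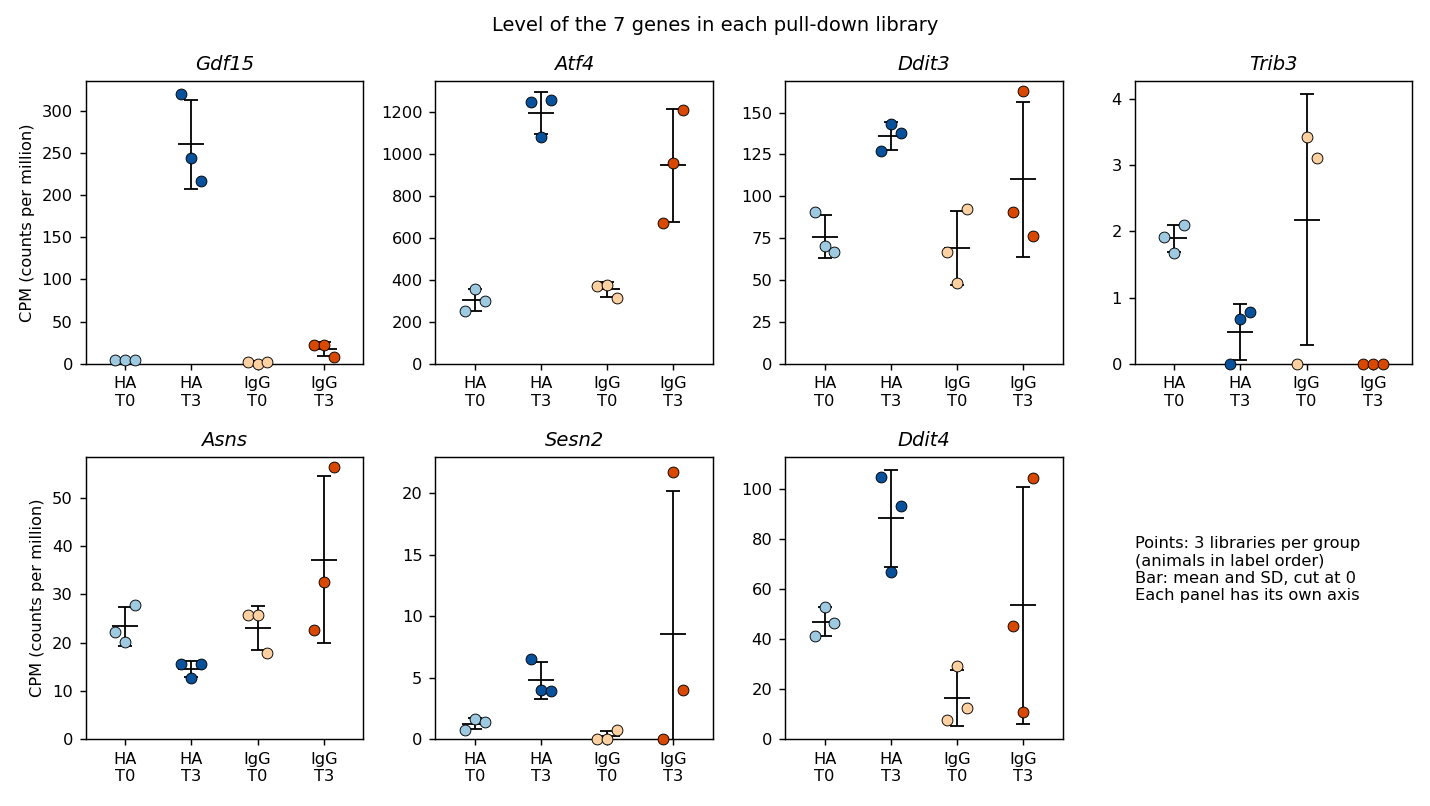
Level of each of the 7 genes in CPM (vertical axes from 0, a separate scale for each gene) in the 4 groups of 3 libraries; points are libraries, the bar is the mean with its SD. Gdf15 reached 217.2 to 319.2 CPM in HA T3 and at most 22.7 in any other library, Atf4 was higher at T3 in both pull-downs, and Asns was lowest in HA T3.

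Atf4 (chr15:80255184-80257541, plus strand), the central transcription factor of the response, rose in the RNA of both pull-downs. It was at 250.7, 357.0 and 299.9 CPM in HA T0 and at 1245, 1079 and 1257 in HA T3 (log2 fold change 2.25, SE 0.18, adjusted p 6.29e-09). In IgG it was at 370.9, 375.4 and 314.0 CPM at T0 and at 669.4, 956.3 and 1207 at T3 (1.42, SE 0.31, adjusted p 0.0130). At T3 every library was above every T0 library, whichever antibody was used. The HA groups lay apart for 50.8% of genes tested, in either direction, and the share over both antibodies was not determined. In IgG, 4.43% of 5219 genes tested were called higher, and of the 2 members tested there Atf4 was called and Ddit3 was not. The IgG call of Atf4 was lost without IgG T0 mouse 1, 2 or 4 or IgG T3 mouse 4 (adjusted p 0.0578, 0.0870, 0.0930 and 0.0695).

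Ddit3 (chr10:127290774-127296288, plus strand), which encodes CHOP, rose in the HA pull-down. HA T0 libraries were at 90.6, 70.4 and 66.5 CPM and HA T3 libraries at 126.9, 143.1 and 137.8 (log2 fold change 1.10, SE 0.19, adjusted p 0.000162). The 2 groups did not overlap. In IgG it was at 67.0, 48.0 and 92.3 CPM at T0 and 90.8, 163.0 and 76.5 at T3, with overlap (0.55, SE 0.41, adjusted p 0.488). The counting window of Ddit3 overlaps that of Mars, the methionyl-tRNA synthetase gene on the opposite strand, and no source says whether strand was used in counting, so reads of the pair may have been mixed. Mars averaged 70.2 ± 7.66 CPM (SD, n = 3) before and 48.6 ± 5.22 after injury in HA (log2 fold change -0.27, adjusted p 0.327), so it did not rise with Ddit3.

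Of the targets of ATF4 that act in amino acid supply and in feedback, neither Asns nor Trib3 was called. Asns (chr6:7675169-7693254, minus strand) was at 22.3, 20.1 and 27.9 CPM in HA T0 and 15.6, 12.7 and 15.6 in HA T3. All T3 libraries were below all T0 libraries, but the fitted change of -0.42 (SE 0.28) did not pass the test (adjusted p 0.252, and 0.0598 to 0.466 over 13 alternative fits). In IgG, Asns had 10, 15 and 23 counts at T0 (25.8, 25.7 and 17.8 CPM) and 2, 3 and 14 at T3 (22.7, 32.6 and 56.3 CPM), and was too low for the test. The pooled IgG ratio of T3 to T0 was 2.09 (95% interval 1.16 to 3.62), and that of HA was 0.605 (0.442 to 0.819). The CPM and these ratios use library totals, and the intervals cover counting error only. With total counts as scaling, the median log2 change of all genes was -0.29 in HA, beside -0.016 in the main fit, so the HA ratio and the fitted change are on different scales.

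Trib3 (chr2:152337422-152344032, minus strand), commonly used as a readout of ATF4 and CHOP activity, was low throughout. HA T0 libraries held 5, 3 and 6 counts and HA T3 libraries 0, 1 and 1, a pooled ratio of 0.259 (95% interval 0.0286 to 1.13). IgG libraries held 0, 2 and 4 counts at T0 and none at T3. It was too low for the test, and with no filter its HA change was -1.55 (adjusted p 0.308). No HA T3 library was above any HA T0 library.

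Of the mTORC1 inhibitor genes among the 7, Ddit4 was called higher at T3 and Sesn2 was too low for the test. Ddit4 (chr10:59949669-59951834, minus strand) was at 41.5, 53.1 and 46.7 CPM in HA T0 and 104.8, 66.9 and 93.4 in HA T3, without overlap (log2 fold change 1.17, SE 0.21, adjusted p 0.000224). Sesn2 (chr4:132492032-132510501, minus strand) was near its detection limit, with 2, 3 and 4 counts in HA T0 and 8, 6 and 5 in HA T3. Its pooled ratio was 3.83 (95% interval 1.65 to 9.62). Without a filter on low counts its change was 2.16 (adjusted p 0.0164).

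In IgG, Ddit4 varied widely. The T0 libraries held 3, 17 and 16 counts (7.73, 29.1 and 12.4 CPM) and the T3 libraries 4, 1 and 26 (45.4, 10.9 and 104.6 CPM). Of the 31 T3 counts, 26 came from mouse 4, the deepest IgG T3 library. Sesn2 had 0, 0 and 1 counts in IgG T0 and 0, 2 and 1 in IgG T3, which allows no comparison.

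In the HA pull-down, 5 of the 7 genes could be tested, and 4 were called higher and none lower, beside backgrounds of 18.7% and 15.1%. Gdf15 passed the filter through its HA T3 libraries, and the members were chosen with earlier results of these data known. Trib3 and Sesn2 were too low for the test, so neither could be called in either direction. The count of calls is therefore a description of these genes and no independent support. The 4 calls held in each of 13 alternative fits. The 5 tested genes had HA groups that did not overlap in CPM, which was also true of 50.8% of genes tested. Their median log2 fold change was 1.17, beside -0.016 over the genes tested. The counts do not tell more cells expressing a gene from more RNA per cell, nor transcription from a change in ribosome loading.

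**Figure D2:**
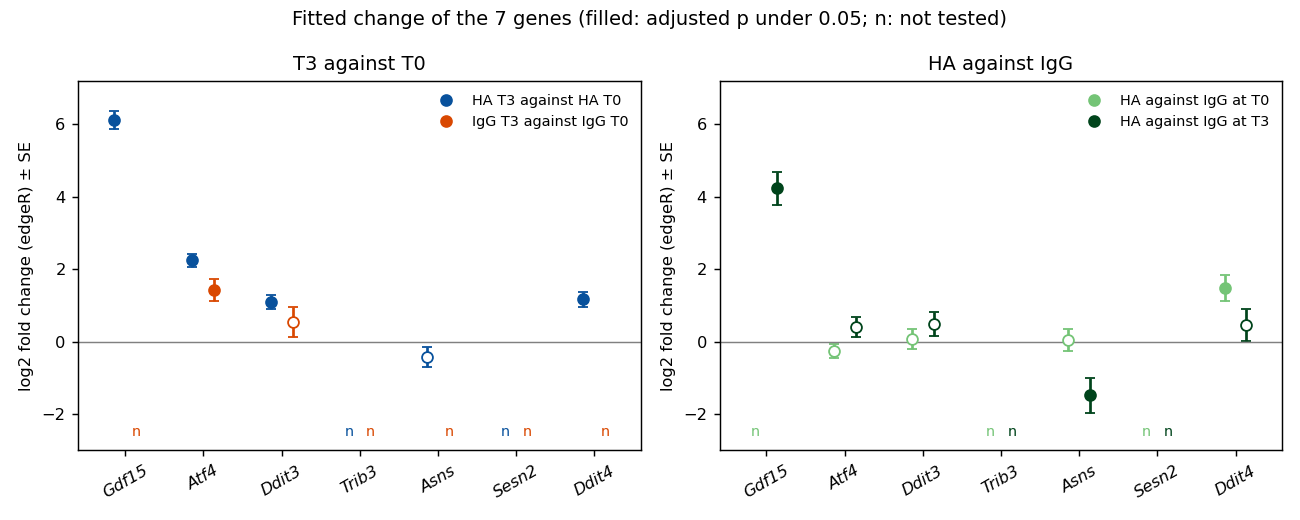
Fitted log2 fold change with its SE for T3 against T0 in HA and in IgG (left) and for HA against IgG at each time point (right); filled points have an adjusted p under 0.05 and n marks a gene too low for the test. The change of Gdf15 in HA, 6.13, stands apart from those of Atf4 (2.25), Ddit4 (1.17), Ddit3 (1.10) and Asns (-0.42).

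The comparison of HA with IgG asks whether a transcript was enriched on tagged ribosomes. At T0, 16% of 9823 genes tested were called higher in HA, and of 4 members tested this was so for Ddit4 alone (log2 difference 1.49, SE 0.36, adjusted p 0.00678). Ddit4 was 5.37, 1.82 and 3.76 times higher in HA than in IgG of mice 1, 2 and 4. Its call was lost without IgG T0 mouse 4 (1.23, adjusted p 0.0504). Atf4 (-0.25, adjusted p 0.353), Ddit3 (0.08, 0.849) and Asns (0.05, 0.917) did not pass. For these 3 genes the HA and IgG ranges overlapped, so no enrichment on tagged ribosomes was detected in naïve tissue. Gdf15 had 32 pooled counts in HA T0 and 3 in IgG T0, a ratio of 3.32 with an interval of 1.04 to 16.9.

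At T3, 11.8% of 7200 genes tested were called higher in HA and 10.2% lower. Gdf15 was called higher in HA, with a log2 difference of 4.24 (SE 0.45, adjusted p 6.83e-06). This held in every alternative that kept at least 2 IgG T3 libraries. It passed the filter on low counts there through its HA libraries, and the alternatives rest on the same few IgG counts. The ratio of HA to IgG was 14.1 in mouse 1, 11.2 in mouse 3 and 27.0 in mouse 4, each from 2 IgG counts. The pooled ratio was 18.4 (95% interval 8.44 to 50.4). Of the 5 genes tested at T3, it was the one called higher in HA.

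Atf4 was 1.86, 1.13 and 1.04 times higher in HA than in IgG of T3 mice 1, 3 and 4, and the difference did not pass (0.41, SE 0.28, adjusted p 0.310). Without IgG T3 mouse 4 it did pass (0.82, adjusted p 0.0354). Ddit4 behaved alike, with ratios of 2.31, 6.15 and 0.893, a difference of 0.46 (adjusted p 0.485) and, without IgG T3 mouse 4, of 1.93 (adjusted p 0.0453). Ddit3 did not pass (0.49, adjusted p 0.293). Both differences moved past the threshold on leaving out this 1 library.

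Asns was lower in HA than in IgG at T3 (log2 difference -1.47, SE 0.48, adjusted p 0.0336). The HA to IgG ratios were 0.685, 0.39 and 0.276, below 1 in each mouse. Of the 19 IgG T3 counts, 14 came from mouse 4, and without that library the difference was -0.66 (adjusted p 0.644). With the mouse as a block, which pairs the libraries of a homogenate, it was -1.35 (adjusted p 0.0853). It passed in 6 of 11 alternatives, 1 of which kept only mouse 4 in IgG T3.

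**Figure D3:**
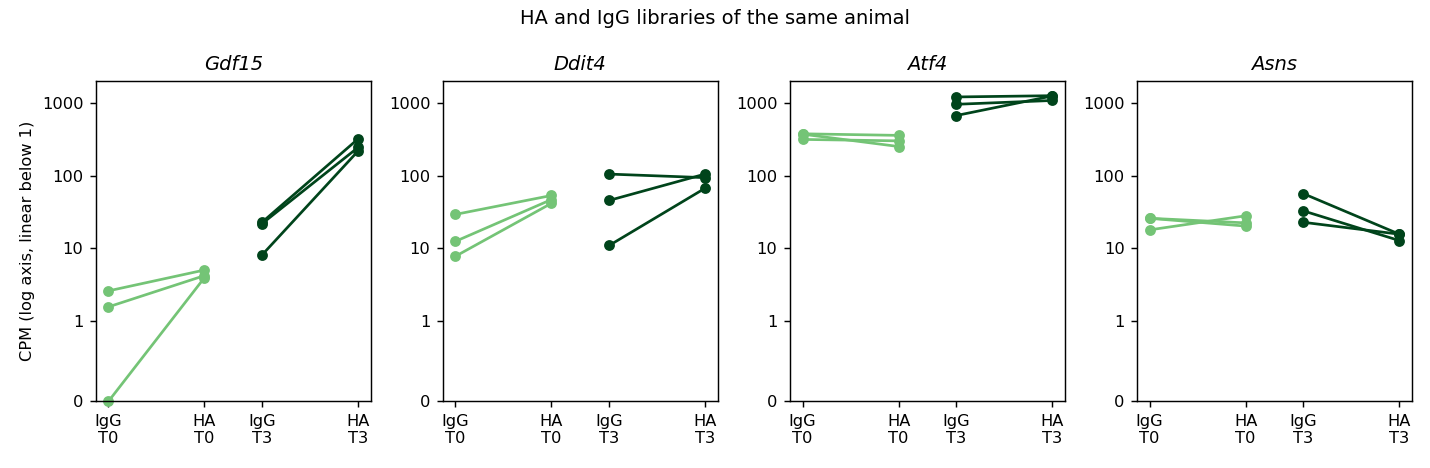
CPM of Gdf15, Ddit4, Atf4 and Asns in the IgG and HA libraries of each mouse (log axis, linear below 1), joined by a line; light lines are T0 mice and dark lines T3 mice. Gdf15 was 11.2 to 27.0 times higher in HA than in IgG at T3. Atf4 was 1.04 to 1.86 times higher in HA at T3, a difference that did not pass the test, and Asns was lower in HA in each T3 mouse.

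A difference between HA and IgG in the change from T0 to T3 was tested by the interaction of antibody and time, which called 0.33% of 10314 genes. None of the 5 members tested was called by edgeR. DESeq2 called none either. The change with time was larger in HA than in IgG by 2.87 for Gdf15 (log2, SE 1.12, adjusted p 0.367) and by 0.91 for Atf4 (SE 0.35, adjusted p 0.340). For Asns it was -1.27 (SE 0.56, adjusted p 0.425), for Ddit4 -0.76 (0.716) and for Ddit3 0.67 (0.611). The range over alternatives was 0.235 to 0.725 for the adjusted p of Gdf15 and 0.0726 to 0.727 for that of Atf4. A larger rise in tagged ribosomes than in background was therefore not shown for any of the 5 genes tested, at a depth where Gdf15 had 9 IgG counts in total. Trib3 and Sesn2 were too low for this test.

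The levels fell into different orders by gene. How often groups lie apart over all genes was determined only for HA T3 against HA T0 (50.8%). For Gdf15 the order was HA T3 (259.9 ± 52.96 CPM, SD, n = 3), IgG T3 (17.5 ± 8.19), HA T0 (4.36 ± 0.562) and IgG T0 (1.38 ± 1.30), and no neighbouring groups overlapped, although the IgG T3 values lay under the limit that a count of 0 allows there. For Atf4, HA T3 (1193 ± 99.6) and IgG T3 (944.3 ± 269.1) overlapped, as did IgG T0 (353.4 ± 34.2) and HA T0 (302.6 ± 53.2). Ddit3 groups that were neighbours in this order overlapped, from HA T3 (135.9 ± 8.28) to IgG T0 (69.1 ± 22.2). For Asns the lowest group, HA T3 (14.6 ± 1.65), lay apart from IgG T0 (23.1 ± 4.56) and HA T0 (23.4 ± 4.00), which overlapped each other and IgG T3 (37.2 ± 17.3). For Ddit4 the lowest group, IgG T0 (16.4 ± 11.3), lay apart from HA T0 (47.1 ± 5.82), and the IgG T3 libraries (53.6 ± 47.4) overlapped both HA groups.

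The other genes of the pathway were given in 12 lists of 116 genes, of which 104 were in the table and 94 were tested in the HA pull-down. Between T0 and T3, 36 of them were called higher and 7 lower, with a median log2 fold change of 0.35 beside -0.016 over the genes tested (background 18.7% and 15.1%). With total counts as scaling, which moves the median of all genes to -0.29, the counts were 28 and 18, and 12.7% of all genes were then called higher and 28.2% lower. In IgG, 9 of 57 were called higher and none lower, beside the 4.43% of genes called higher there. Castor1 was counted as missing from the table, which holds it under the older symbol Gatsl3.

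The genes for the subunits that direct eIF2 dephosphorylation rose. In the list of eIF2 kinases, eIF2B subunits and phosphatase subunits, 4 of 11 were called higher and none lower (median 0.38). Ppp1r15a (GADD34), which recruits the phosphatase that removes the phosphate from eIF2, went from 53.01 ± 6.42 to 459.9 ± 43.6 CPM in HA (a log2 change of 3.38, SE 0.19, adjusted p 3.83e-11). It also rose in IgG, from 46.6 ± 9.60 to 409.0 ± 42.0 CPM (3.09, adjusted p 2.43e-05). Its constitutive relative Ppp1r15b rose by 1.75 in HA (adjusted p 2.71e-07). Eif2b4, a subunit of the exchange factor that recharges eIF2 with GTP, rose by 0.65 (adjusted p 0.0236), a call that held in 7 of 13 alternatives.

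Among transcription factors that pair with ATF4 or CHOP, 2 of 4 tested were called. Atf3, a stress-induced factor of the ATF family, rose from 22.4 ± 9.25 to 436.1 ± 72.8 CPM in HA (4.57, adjusted p 3.22e-08) and from 19.2 ± 9.93 to 504.5 ± 146.4 CPM in IgG (4.80, adjusted p 1.11e-05). Cebpb (C/EBPβ) rose by 3.30 in HA (adjusted p 1.17e-10) and by 2.57 in IgG (0.000900). Atf5, another factor with stress-regulated translation, was at 0.13 (adjusted p 0.591; -0.14 with total counts as scaling). Atf3 and Cebpb thus rose in HA and in IgG, as Atf4 did.

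Amino acid supply showed a mixed picture. Of 7 tested amino acid transporter genes, 4 were called higher (median 0.80): Slc7a5, the light chain of a large neutral amino acid transporter, rose by 1.67 (adjusted p 2.56e-05), its heavy chain Slc3a2 by 0.83 (0.00256) and Slc7a1, which carries arginine and lysine, by 1.66 (0.000196). Genes for tRNA charging and export, which ATF4 is known to induce, had 6 of 12 called higher and none lower (median 0.49), among them Nars (0.88, adjusted p 0.00113), Tars (0.84, 0.00123) and Aars (0.80, 0.00236). In IgG no gene of these 2 lists was called. Positive changes were seen there for 5 of 5 transporter genes tested (median 1.04) and 9 of 10 tRNA genes tested (median 0.43). Genes for amino acid and one-carbon synthesis, the class to which Asns belongs, had 1 of 9 called (median 0.22). That gene was Phgdh, the first enzyme of serine synthesis, which went from 37.7 ± 13.1 to 66.5 ± 6.84 CPM (1.06, adjusted p 0.00228). Psat1, the next enzyme of that route, was at -0.47 (adjusted p 0.267). The cystine transporter gene Slc7a11, a frequent ATF4 target, was not analysed here.

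Of the other targets of ATF4 and CHOP, 1 of 3 tested passed: Bbc3 (PUMA), a cell death gene, rose by 2.10 (adjusted p 2.77e-05). Chac1, a glutathione-degrading enzyme and a sensitive target, had 12 counts in HA T0 and 15 in HA T3 and was not tested. Markers of the IRE1 and ATF6 arms of the unfolded protein response, which report endoplasmic reticulum stress, had 2 of 14 called higher and 4 lower (median -0.32). The chaperone gene Hspa5 (BiP) was at 279.4 ± 122.2 CPM before and 248.8 ± 53.4 after injury (0.08, adjusted p 0.864), and its sign varied among the alternatives. Sdf2l1 (-1.42, adjusted p 0.00510), Creld2 (-0.98, 0.00289) and Calr (-0.52, 0.0321; 8 of 13 alternatives) fell. Atf6 itself (0.85, adjusted p 0.00857) and Herpud1 (0.49, 0.0471; 3 of 13 alternatives) rose. The called genes of the IRE1 and ATF6 arms thus moved in both directions in the libraries in which Atf4 and Ddit3 rose. Whether endoplasmic reticulum stress acted on Atf4 or Ddit3 was not tested.

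Other inhibitors of mTORC1 had 1 of 7 called higher and 2 lower (median -0.58), with weak calls. Sesn3 rose by 1.00 (adjusted p 0.0405; 3 of 13 alternatives), while Sesn1 was at -0.58 (0.0358; 6 of 13) and Tsc1 at -0.91 (0.0260; 7 of 13). Gatsl3 (Castor1), an arginine sensor that was not counted in the list, was at -1.35 (0.00811; 12 of 13). None of the 3 tested genes for the receptor and processing of GDF15 passed. Ret, the signalling partner of the receptor, was at 13.4 ± 0.506 CPM in HA T0 and 11.7 ± 3.32 in HA T3 (0.07, adjusted p 0.890; -0.20 with total counts as scaling), and Gfral was not analysed here.

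**Figure D4:**
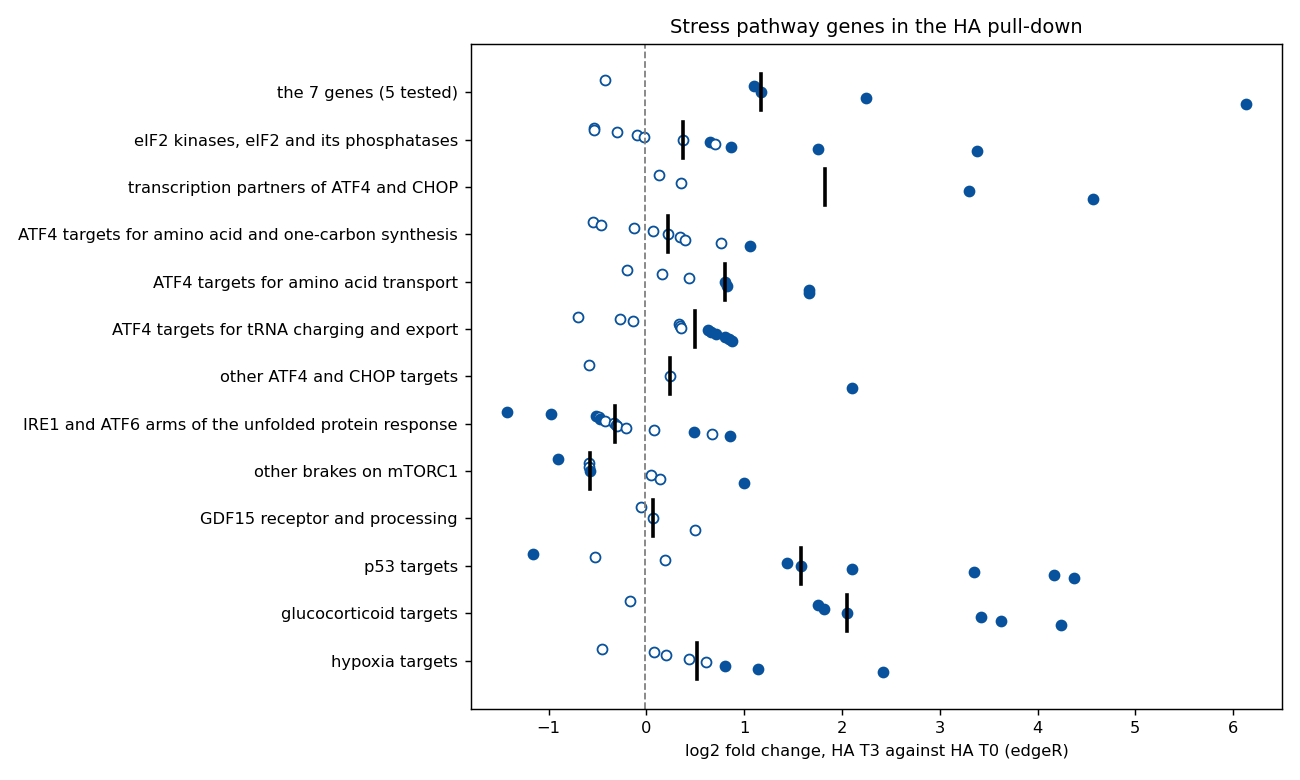
Log2 fold change in HA T3 against HA T0 of each tested gene (points; filled, adjusted p under 0.05) in the 7 genes and the 12 lists; the short bar is the median of a list and the dashed line the median of all genes tested, -0.016. The medians are highest for glucocorticoid targets (2.05), partners of ATF4 and CHOP (1.83) and p53 targets, a list that includes Trp53 itself (1.58). They are lowest for other brakes on mTORC1 (-0.58) and the IRE1 and ATF6 arms (-0.32).

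Gdf15 and Ddit4 also answer to other pathways, and targets of these moved in the same HA libraries. Of 9 genes tested in the p53 list, which holds Trp53 itself beside its targets, 6 were called higher and 1 lower (median 1.58). Cdkn1a (p21), which arrests the cell cycle, rose by 4.37 (adjusted p 1.02e-12), the kinase gene Plk3 by 4.17 (1.08e-07) and Btg2 by 3.35 (8.77e-08), while Ccng1 (cyclin G1) fell by 1.16 (0.000897). Of 7 glucocorticoid targets, 6 were called higher and none lower (median 2.05), with Errfi1 at 4.24 (1.49e-10), Sgk1 at 3.42 (2.90e-08) and Klf9 at 2.05 (2.66e-07). Hypoxia targets had 3 of 8 called higher (median 0.52): Pfkfb3 (2.42, 7.00e-08), Vegfa (1.15, 0.000351) and Slc2a1 (0.80, 0.00512). In IgG, 2 of 6 genes tested in the p53 list were called higher and none lower. The same held for 3 of 5 glucocorticoid targets and 1 of 5 hypoxia targets. Cdkn1a rose there by 3.48 (adjusted p 2.67e-05), Btg2 by 2.55 (0.0017) and Pfkfb3 by 2.37 (0.00237). The interaction of antibody and time called 1 of 9 genes of the p53 list, none of those named here, and no glucocorticoid or hypoxia target. Which of these pathways acted on Gdf15 or Ddit4 was not tested.

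Cell type markers also moved with time. The summed level of 9 glial markers was 3539 to 4324 CPM in HA T0 and 4348 to 5023 in HA T3, against 170.0 to 219.4 in IgG T0 and 221.3 to 941.7 in IgG T3. Gfap rose from 118.3 ± 19.7 to 1715 ± 225.5 CPM in HA, and without it the sum of the other 8 was 3443 to 4195 CPM in HA T0 and 2716 to 3352 in HA T3. Of 8 glial markers tested in HA, 3 were called higher and 1, Gpr37l1, lower (-0.87, adjusted p 0.00174). Of 9 markers of neutrophils and monocytes, 4 were in the table, and their sum was 6.27 to 16.2 CPM in HA T0, 22.1 to 116.2 in HA T3, 26.4 to 39.4 in IgG T0 and 43.5 to 249.6 in IgG T3. The higher T3 sums came from S100a8 and S100a9, while the mean levels of Ccr2 and Plac8 were lower at T3 in both pull-downs. The highest HA T3 sum was that of mouse 1, which also had the highest Gdf15; without that library the Gdf15 change was 5.98 (adjusted p 4.58e-14). In IgG T3, with sums of 43.5 CPM and above, Gdf15 was at 8.05 to 22.7 CPM. These values came from 2 counts in each library, too few to be set against the sums. Neuron markers summed to 989.8 to 1101 CPM in HA T0 and 1051 to 1816 in HA T3, with 3 of 7 called higher and none lower (background 18.7% and 15.1%). In IgG none of the 7 was called. Mesothelial markers (6 of 6 in the table) fell from 185.7 to 247.6 CPM in HA T0 to 27.2 to 34.8 in HA T3, fibroblast markers from 736.4 to 1081 to 229.7 to 381.2, and macrophage markers from 383.5 to 673.9 to 184.2 to 304.9. In IgG, mesothelial sums were 566.7 to 1114 CPM at T0 and 136.2 to 205.2 at T3. Fibroblast sums were 2189 to 2553 and 921.4 to 1358 there, and macrophage sums, which overlapped, 614.8 to 958.2 and 554.2 to 676.0. Markers of interstitial cells of Cajal, also enriched in HA, fell from 3011 to 4066 CPM in HA T0 to 1520 to 2105 in HA T3. Of these 4 markers, 2 were called lower in HA T3, beside 15.1% of all genes tested. The interaction of antibody and time called 1 of the 4 lower. The part of these shifts in the changes of the 7 genes was not tested.

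The genes most like Gdf15 over the 12 libraries were found by the Pearson correlation of log2 CPM among 10314 genes. They were Srxn1 (r = 0.989), an antioxidant enzyme that repairs peroxiredoxins, Vasn (0.983), a membrane protein that binds TGF-β, Oaf (0.981), Nes (0.976), the intermediate filament nestin, and Gdnf (0.974), a neurotrophic factor that signals through RET. Srxn1 was at 82.3 ± 2.89 CPM in HA T0, 2190 ± 362.1 in HA T3, 52.7 ± 7.46 in IgG T0 and 278.8 ± 134.4 in IgG T3. Gdnf was at 15.1 ± 2.49, 282.0 ± 83.2, 11.8 ± 2.56 and 58.0 ± 19.9 CPM in the same order. Of the other members, Ddit3 ranked 149 (0.88), Atf4 219 (0.85), Ddit4 1035 (0.62) and Asns 8410 (-0.40). The 12 points share time point, antibody and depth, so these values describe the shared pattern of the 4 groups.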

How the data were processed

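Per the labels, libraries were made by bulk MARS-seq, which tags 3′ ends with unique molecular identifiers (UMIs), in pools of similar qPCR cycle value whose members are not stated. After trimming (cutadapt) and mapping to mm10 (STAR 2.4.2a), the authors counted uniquely mapped, deduplicated reads with HTSeq from 1000 bases before to 100 after the annotated end of a gene. Raw UMI counts per gene were deposited. Single files and series table differed in 0 counts.

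Counts were tested here with edgeR 4.0.16 (R 4.3.3; robust quasi-likelihood F-test, TMM scaling, filterByExpr) on the libraries compared, with Benjamini-Hochberg adjustment over the genes tested and a threshold of 0.05; the script was tested on simulated data. SEs were derived from the F statistic. CPM used library totals. Libraries with the same number at a time point come from 1 homogenate; their deviations correlated at 0.15 to 0.336, other pairs at -0.219 to 0.0123. T0 and T3 mice differ. With 3 mice a group, p-values weigh a difference against the spread among mice, estimated with information shared across genes. The main fits treated the HA and IgG libraries of a mouse as independent, and pairing them by mouse was an alternative.

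The members and lists were chosen with earlier results of these data known, and the study had picked Gdf15 and Gdnf from these libraries. Genes named beside the 7 were up to 3 per list and direction with the smallest p in HA past the threshold, a preset set (Ppp1r15a, Atf3, Atf5, Chac1, Psat1, Phgdh, Slc7a11, Hspa5, Ret, Gfral), the 5 most like Gdf15 (TMM-scaled log2 CPM, prior count 2), Rpl22 and 4 glial markers, of which 1 is not reported here singly; Mars, Gatsl3, Gpr37l1, Trib1 and Trib2 were added after their values were seen. Rpl22, the tagged gene, was at 83.3 ± 9.02, 65.2 ± 5.89, 23.8 ± 7.60 and 24.4 ± 12.0 CPM in HA T0, HA T3, IgG T0 and IgG T3. Alternatives were RLE (DESeq2 size factors) or total counts as scaling, no filter, at least 5 counts in 1 library, DESeq2 1.42.0, all 12 libraries in 1 fit, a minimum log2 fold change of 1 in size, the mouse number as a block, leaving out each library and, added after seeing the data, leaving out IgG T3 libraries under 100000 counts. The last of these kept 1 IgG T3 library, that of mouse 4, and so had no spread among mice in that group.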

Additional observations from a re-analysis of the deposited data

How the results depend on the processing

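The 4 calls of members in HA T3 against HA T0 (Gdf15 from 5.86 to 6.25) held in every alternative run. The Gdf15 call in HA against IgG at T3 held in every alternative that kept at least 2 IgG T3 libraries. Its values there ran from 3.81 to 5.12, the highest from the fit that kept 1 IgG T3 library. Gdf15 passed the main filter in both comparisons through its HA T3 libraries. In IgG T3 against IgG T0, where 1 member was called, 2 were called with no filter (Atf4 and Ddit4) and 0 to 2 with a library left out. In the fit of all 12 libraries 3 were called, with Gdf15 at an adjusted p of 0.0235 (edgeR). Gdf15 passes the filter there through its HA counts. Without the IgG T3 libraries under 100000 counts, 1 library remained in that group, so its calls are not given. With a library left out, HA against IgG at T0 gave 0 to 1. At T3, where 2 members were called, 1 was called with no filter, with at least 5 counts in 1 library, with the replicate block and with the 12 libraries fitted together, and 1 to 3 with a library left out. Of pathway genes lower in HA T3 (7), 18 were called with total counts as scaling (28.2% of all genes, against 15.1%), 4 in the fit of all 12 libraries, 2 with a minimum log2 fold change of 1 in size and 3 to 8 with a library left out; those higher (36) fell to 22 with the fold minimum.

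Signs changed for small, uncalled values: Atf5 (-0.14), Hspa5 (-0.17) and Ret (-0.20) with total counts, Hspa5 (-0.11) and Ddit3 in IgG (-0.022) with the replicate block, and Ddit4 at T3 (-0.12) without the IgG T3 libraries under 100000 counts. With a library left out, the ranges were -0.15 to 0.52 for Hspa5, -0.13 to 0.28 for Ret, -0.12 to 0.42 for Ddit3 and -0.14 to 0.17 for Asns in HA against IgG at T0, and -1.36 to 0.56 for Ddit4 in the interaction. Time points share only numbers 1 and 4, from different mice (correlations 0.0336 to 0.22), so a block pairs nothing there. Paired by mouse, HA against IgG kept Gdf15 at T3 (4.16) and Ddit4 at T0 (1.54), and the block changed no other call of a member than that of Asns at T3. The cause of these shifts was not tested. Depth limits Gdf15, Trib3, Asns, Sesn2 and Ddit4 in IgG T3.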

Other observations

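Trib3 belongs to the Tribbles family of pseudokinases, whose other members are Trib1 and Trib2. Trib1, chosen after its values were seen, averaged 30.4 ± 2.00 CPM (SD, n = 3) at T0 and 696.6 ± 159.8 at T3 in HA (log2 fold change 4.77, SE 0.22, adjusted p 1.02e-12, edgeR). In IgG it was at 10.7 ± 5.20 CPM at T0 and 151.2 ± 19.9 at T3 (3.70, adjusted p 9.40e-05). The HA level of Trib1 exceeded the IgG level at T0 (1.40, adjusted p 0.00807) and at T3 (2.28, adjusted p 4.40e-05). Trib2 was at 34.4 ± 8.35 CPM in HA T0 and 39.1 ± 2.81 in HA T3 (0.45, adjusted p 0.137). The member of the family with a strong rise was thus Trib1, while Trib3 had 2 counts in HA T3.

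Of the 4 neutrophil and monocyte genes in the table, S100a8 and S100a9 had no count in IgG T0 and 19 and 26 counts in IgG T3, while Ccr2 had 26 and 1 and Plac8 had 46 and 4. S100a9 was at 98.2, 16.7 and 18.7 CPM in HA T3 mice 1, 3 and 4.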
